A study of Mus musculus with 9 samples.

Results

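The genes described here encode the enzymes and transporters that build and sialylate mucin-type O-glycans, the sugar chains carried by salivary mucins, in the submandibular gland (SMG) of adult male mice. The 41 genes were taken from a list of symbols chosen by function, out of 48709 genes with counts: 11 GalNAc transferases, 7 core and branching enzymes, 3 galactosyltransferases of the *B4galt* family, 10 sialyltransferases, 4 fucosyltransferases and 6 genes of sialic acid synthesis and nucleotide sugar transport. Of these, 35 are in the table of normalized values and 33 had enough counts to be tested. The RNAseq libraries came from 4 WT mice and 5 *Hs3st3a1;Hs3st3b1* double knockout (DKO) mice, 1 gland library per mouse, all male and on a C57BL/6 background. The DKO mice carry, on the same chromosome, an *Hs3st3b1* knockout allele with a LacZ cassette and a frameshift deletion that a zinc finger nuclease made in exon 1 of *Hs3st3a1*. Both genes encode heparan sulfate 3-*O*-sulfotransferases and are lost in the germline, not in a chosen cell type. Several founders with different *Hs3st3a1* deletions were made, and which of them gave these mice is not given in the sources used here, nor is the age beyond adult.

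Mucin-type O-glycosylation starts in the Golgi, where a GalNAc transferase links N-acetylgalactosamine to a serine or threonine of the protein. C1galt1, which needs the chaperone C1galt1c1 (Cosmc), adds galactose to form the core 1 disaccharide, which Gcnt enzymes can branch and B3gnt and B4galt enzymes can lengthen. Sialyltransferases then cap the chains with sialic acid, made in the cytosol and nucleus by Gne, Nans, Nanp and Cmas and carried into the Golgi as CMP-sialic acid by Slc35a1. In salivary glands the acinar cells secrete heavily glycosylated mucins, and sialic acid gives these mucins much of their negative charge.

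Levels are given in CPM, the reads of a gene relative to the size of its library after TMM scaling. Total counts ranged from 20653492 to 37870519 in WT and from 17053747 to 34683690 in DKO. *Hs3st3a1* had 3 to 14 counts in each WT library and 0 in each DKO library, where a count of 0 allows up to 3, and *Hs3st3b1* had a mean of 4.48 CPM (SD 1.03, n = 4) in the WT and of 1.02 CPM (SD 0.546, n = 5) in the DKO libraries. The libraries also differed in cell type markers. The summed CPM of 7 granular duct markers was 42490 to 104800 in WT and 5595 to 33590 in DKO. That of 7 acinar markers was 172400 to 258700 in WT and 270800 to 452300 in DKO. Nearly all of the acinar sum came from the secretory products *Mucl2*, *Prol1* and *Pip*. The acinar markers *Aqp5*, *Bhlha15*, *Lpo* and *Slc12a2* were far lower, and each overlapped between the groups. In whole-gland RNA, fewer cells of a type and less RNA per cell cannot be told apart. The summed CPM of 4 parotid gland markers was 24.4 to 48.4 in WT and 57.4 to 92.4 in DKO replicates 2 to 5, without overlap. DKO replicate 1 stood apart with 8094 CPM. The markers did not move together in DKO replicates 2 to 5. *Bpifa2* was at 4.41 to 26.5 CPM in WT and 43.3 to 79.1 CPM in these DKO libraries. *Amy1* went the other way, at 17.3 to 25.4 CPM in WT and 7.10 to 14.1 CPM in these DKO libraries.

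Differences between the genotypes were tested gene by gene in edgeR (quasi-likelihood), with p adjusted by Benjamini and Hochberg's method for the 13842 genes tested, and fold changes are DKO over WT. The clearest difference among the 33 tested members was in *St3gal1*, which rose 7.71-fold. It was the 1 member with an adjusted p under 0.05 by edgeR, and 0 members fell, where 0.629% of all genes tested were called (0.166% higher and 0.462% lower). The Wald test of DESeq2, which the study's methods name, called 3 members from these counts, *St3gal1*, *Gne* and *St3gal4*, all higher in DKO, where it called 4.45% of all genes (1.77% higher and 2.68% lower). An unadjusted edgeR p under 0.05 was found for 11 of the 33 members and for 14.5% of all genes. The median log2 fold change of the 33 members was 0.03, beside 0.01 for all genes tested, with 17 members above 0 and 16 below, where 52.6% of all genes lay above 0.

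**Figure D1:**
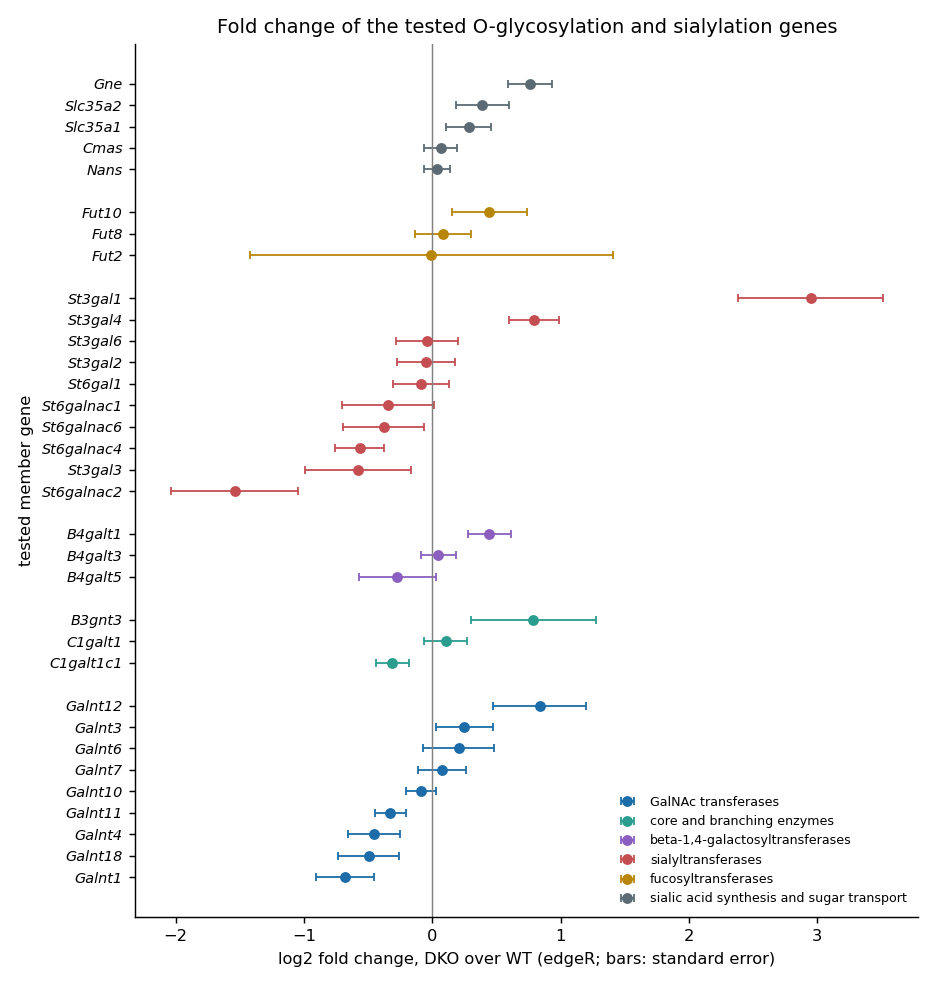
Fitted log2 fold change of the 33 tested members, DKO over WT, by subgroup; points are edgeR estimates and bars are standard errors. *St3gal1* lies at 2.95 and *St6galnac2* at -1.54, the other members lie between -0.68 and 0.83, and *Fut2*, at 21 counts or fewer per library, has the widest error.

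The WT and DKO values did not overlap for 4 of the 33 members: *St3gal1* and *Gne* were higher in every DKO library (2.49% of all genes tested were), and *Galnt11* and *St6galnac4* were lower in every DKO library (3.51% of all genes were). The remaining 8 members had too few counts for the test. *Gcnt4* had 0 counts in all 9 libraries, *Galnt2* at most 2 and *Gcnt3* at most 3 in a library, *Nanp* at most 4, *Galnt14* and *Fut1* at most 5, *B3gnt6* at most 17 and *Gcnt1* at most 21. Thus the core 2 enzymes (*Gcnt1*, *Gcnt3*, *Gcnt4*) and the core 3 enzyme (*B3gnt6*) had little or no signal in these glands, and a difference between WT and DKO was not detectable at this depth.

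The GalNAc transferases start every mucin-type chain, and the family members differ in which peptides they prefer. Per kilobase of exon, the scale on which levels of different genes are compared, *Galnt3* was highest in WT with 11.5 ± 2.19 CPM per kilobase (SD, n = 4), followed by *Galnt18* at 6.92 ± 1.297 and *Galnt7* at 6.15 ± 0.746, which did not differ from each other beyond their spread, and by *Galnt10* at 3.40 ± 0.146. *Galnt11*, *Galnt1*, *Galnt4*, *Galnt12* and *Galnt6* lay between 1.28 and 0.167 CPM per kilobase. *Galnt3* was at 45.3, 41.2, 63.2 and 51.5 CPM in WT replicates 1 to 4 and at 50.2, 43.4, 94.8, 47.1 and 63.7 CPM in DKO replicates 1 to 5. The groups overlapped, and only DKO replicate 3 stood well above the WT range (log2 fold change 0.25, SE 0.22, adjusted p = 0.681).

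*Galnt11*, known to glycosylate Notch and megalin family receptors, was at 8.74, 9.05, 9.31 and 7.85 CPM in the WT libraries and at 7.79, 7.68, 6.96, 6.52 and 5.72 CPM in the DKO libraries. All DKO values lay under the lowest WT value, the closest pair being 7.79 and 7.85 CPM, and the test did not call it (log2 fold change -0.33, SE 0.12, adjusted p = 0.245). The median log2 fold change of the 9 tested GalNAc transferases was -0.09, with 4 above 0 and 5 below and 0 called by either test. *Galnt1* (-0.68, SE 0.23), *Galnt18* (-0.50, SE 0.24) and *Galnt4* (-0.45, SE 0.20) lay lowest and *Galnt12* (0.83, SE 0.36) highest, with adjusted p from 0.184 to 0.364. Leaving out DKO replicate 1 ended the overlap for *Galnt1*, which DESeq2 then called lower. Up to 122 counts in a library fell on *Poc1b*, whose exons overlap *Galnt4* on the same strand, against 33 to 163 counts on *Galnt4*.

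Of the core and branching enzymes, the chaperone gene *C1galt1c1* was highest with 31.0 ± 5.99 CPM per kilobase in WT (SD, n = 4). In CPM it was at 55.3, 34.8, 42.0 and 47.8 in WT and at 36.5, 34.4, 35.4, 40.0 and 34.5 in DKO, so that the DKO values lay close together at the lower end of the WT range (log2 fold change -0.31, SE 0.13, adjusted p = 0.283). *C1galt1* itself, the core 1 enzyme, was at 16.3 ± 3.39 CPM in WT and 17.5 ± 3.09 CPM in DKO. Its log2 fold change was 0.10, with an approximate 95% interval from -0.23 to 0.43. *B3gnt3*, which extends core 1, was at 0.817 ± 0.713 CPM in WT and 1.47 ± 0.543 CPM in DKO (log2 fold change 0.79, SE 0.49, adjusted p = 0.514), and its highest WT value, 1.83 CPM in WT replicate 2, lay above 4 of the 5 DKO values.

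*B4galt1*, the Golgi galactosyltransferase that also adds galactose to N-glycans, had the highest level per kilobase of all 41 members in both groups, 77.2 ± 14.4 CPM per kilobase in WT and 105 ± 19.0 in DKO. In CPM it was at 246, 371, 314 and 377 in WT and at 353, 572, 427, 415 and 454 in DKO. In 4 of 5 DKO libraries the value was above every WT value, and DKO replicate 1 lay within the WT range (log2 fold change 0.44, SE 0.17, adjusted p = 0.246, and 0.125 by DESeq2). *B4galt3* (log2 fold change 0.04) and *B4galt5* (-0.27) were not called either. *Ppox* overlaps *B4galt3* on the opposite strand. Reads in the exon stretch they share cannot be told apart, since the libraries carry no strand. Up to 738 counts in a library fell on *Ppox*, against 1151 to 5040 on *B4galt3*.

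The sialyltransferases held the largest differences in both directions. *St3gal1*, which puts sialic acid on the galactose of core 1 and so ends that chain, is a minus-strand gene of chromosome 15, from 67102875 to 67176830 (GRCm38). It was at 3.84, 26.9, 8.39 and 11.2 CPM in WT replicates 1 to 4 and at 53.2, 92.9, 183, 41.9 and 117 CPM in DKO replicates 1 to 5, from 86 to 705 counts in WT and from 1060 to 4000 in DKO. Every DKO library was above every WT library, and WT replicate 2 and DKO replicate 3 were the highest of their groups. The log2 fold change was 2.95 (SE 0.56, approximate 95% interval 1.84 to 4.05, adjusted p = 0.0478 by edgeR and 0.000467 by DESeq2). An exact two-sided permutation test of the library values gave p = 0.00794, the smallest it can give, without adjustment for the number of members.

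The edgeR call for *St3gal1* lies just inside the threshold. It was kept when WT replicate 2 (adjusted p = 0.0164) or DKO replicate 4 (0.0183) was left out and lost without any of the other 7 libraries, with adjusted p from 0.0581 without DKO replicate 3 to 0.198 without WT replicate 1, while the log2 fold change stayed between 2.59 and 3.63. Without DKO replicate 1, the library with the most parotid marker signal, the log2 fold change was 3.10 with an adjusted p of 0.0823. The edgeR call was also lost with the replicate number as a block (log2 fold change 2.94, adjusted p = 0.0766). The same held with the 20 most abundant genes left out of the totals (2.93, adjusted p = 0.0630). The labels do not say what the replicate numbers mark. DESeq2 called *St3gal1* in each of its 9 fits that left out a library, with adjusted p from 1.69e-07 to 0.0122.

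*St3gal4*, which sialylates galactose at the ends of N- and O-glycan chains and is found at 35046576 to 35119268 on the minus strand of chromosome 9, was by far the most abundant sialyltransferase at 50.9 ± 15.8 CPM per kilobase in WT (SD, n = 4). It was at 115, 210, 111 and 159 CPM in WT and at 206, 265, 281, 227 and 309 CPM in DKO. WT replicate 2 lay just above the lowest DKO library, and the other 4 DKO values were above all WT values. The log2 fold change was 0.79 (SE 0.20), with an adjusted p of 0.0794 by edgeR and 0.00458 by DESeq2, and DESeq2 lost the call without WT replicate 1 (adjusted p = 0.0554). Up to 324 counts in a library fell on *4930581F22Rik*, which overlaps *St3gal4* on the opposite strand, against 2587 to 7030 counts on *St3gal4*.

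The other 8 sialyltransferases all had log2 fold changes below 0, although *St3gal6* turned above 0 when the 20 most abundant genes were left out of the totals, with limma-voom and with the replicate block, *St3gal2* with the latter pair, *St6gal1* with limma-voom, and these 3 without some single libraries. Neither test called any of the 8. *St6galnac2*, which sialylates the first GalNAc of the chain, was at 33.3, 17.9, 44.1 and 46.3 CPM in WT and at 6.64, 22.7, 2.15, 12.7 and 16.7 CPM in DKO. In 4 of 5 DKO libraries it was below every WT value, and DKO replicate 2 lay above WT replicate 2 (log2 fold change -1.54, SE 0.50, adjusted p = 0.169, and 0.165 by DESeq2). Leaving out either WT replicate 2 or DKO replicate 2 ended the overlap, and no setting tried gave an adjusted p under 0.05 (0.0645 to 0.444). A second annotated row of the same name and strand, which overlaps it, had at most 26 counts in a library. *St6galnac1*, the enzyme of the same reaction on the neighbouring gene, was at 16.1 ± 5.01 CPM in WT and 12.7 ± 6.30 CPM in DKO, with overlap (log2 fold change -0.35, SE 0.36).

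*St6galnac4*, which adds a second sialic acid to sialylated core 1, was at 2.63, 2.14, 2.58 and 2.66 CPM in WT and at 1.26, 1.44, 1.83, 2.09 and 1.74 CPM in DKO, from 24 to 117 counts per library. The highest DKO value, 2.09 CPM, lay just under the lowest WT value, and the difference did not pass the test (log2 fold change -0.57, SE 0.19, adjusted p = 0.198). *St3gal2*, *St3gal3*, *St3gal6*, *St6gal1* and *St6galnac6* were at 0.475 to 4.48 CPM in WT and at 0.279 to 4.30 CPM in DKO, with log2 fold changes from -0.58 to -0.04. *St3gal6* differed in spread, with 4.24 to 4.77 CPM in WT and 2.52 to 5.79 CPM in DKO. *St6gal1*, the main enzyme of N-glycan sialylation in liver and lymphocytes, was low at 1.49 ± 0.226 CPM in WT. The median log2 fold change of the 10 sialyltransferases was -0.22, with 2 above 0 and 8 below.

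**Figure D2:**
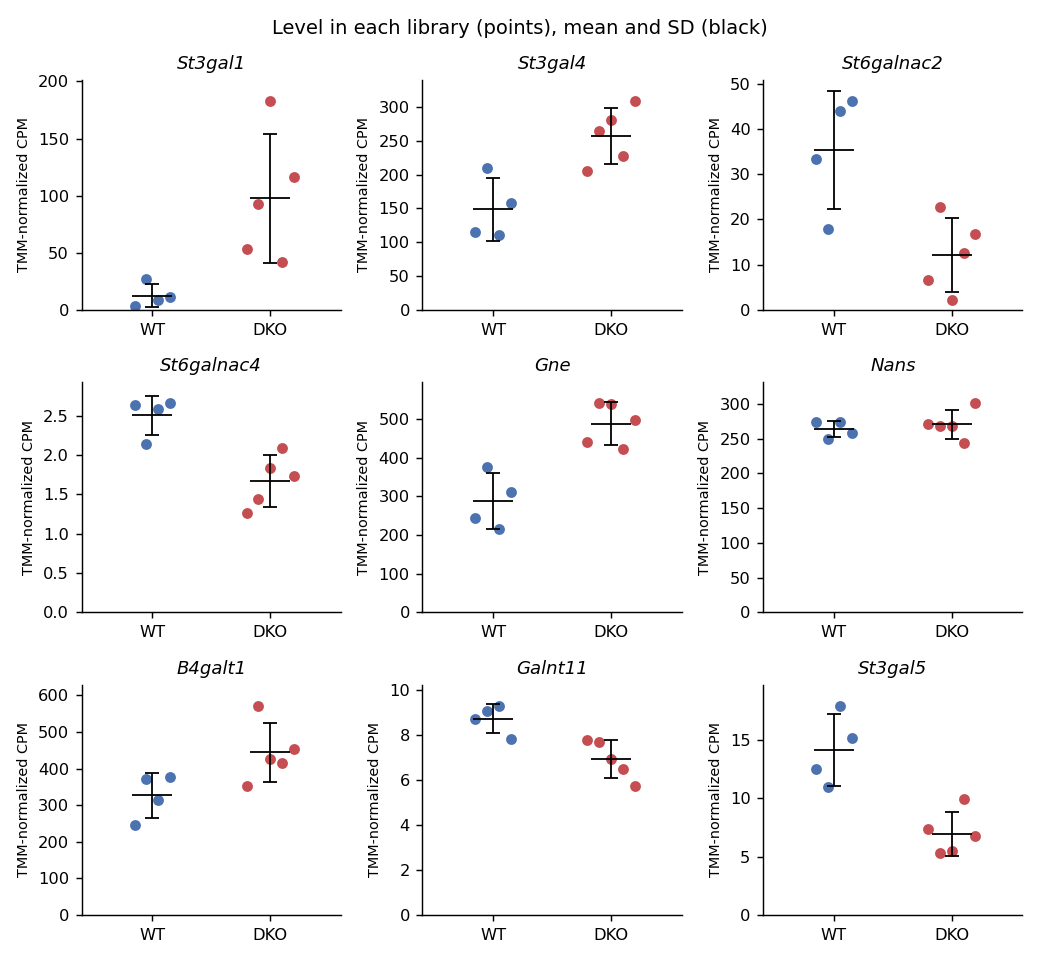
TMM-normalized CPM of 8 members and of the related sialyltransferase gene *St3gal5* in each library, with 4 WT (blue) and 5 DKO (red) points and the mean ± SD in black; each panel has its own axis from 0. *St3gal1* and *Gne* in DKO lie above all WT points, *St6galnac4*, *Galnt11* and *St3gal5* below them, and *Nans* is level.

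The levels of the sialyltransferases were also set side by side within each library, which no scaling factor can change. Of the summed CPM per kilobase of the 10 sialyltransferases, *St3gal1* made up 1.01%, 4.62%, 2.14% and 2.19% in WT and 8.93%, 11.6%, 20.8%, 6.75% and 12.5% in DKO. *St6galnac2* made up 10.4%, 3.63%, 13.3% and 10.7% in WT and 1.32%, 3.33%, 0.289%, 2.42% and 2.13% in DKO. Neither share overlapped between the groups. A share also depends on the other genes of the sum. In CPM, *St6galnac2* was higher in DKO replicate 2 (22.7) than in WT replicate 2 (17.9), though its share was lower. *St3gal4* took most of the sum in every library, 66.3% to 84.6% in WT and 74.8% to 86.0% in DKO, with overlap. *St6galnac2* had the larger share of the pair in WT replicates 1, 3 and 4, and *St3gal1* had it in WT replicate 2 and in all 5 DKO libraries. These pairs were chosen after the values were seen and are given as a description.

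**Figure D3:**
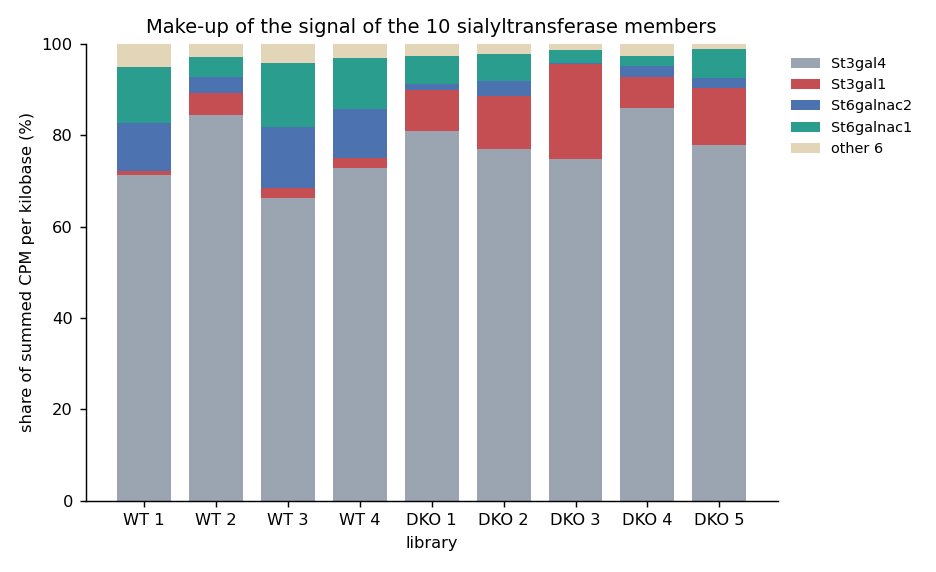
Share of each sialyltransferase in the summed CPM per kilobase of the 10 sialyltransferase members, in percent, 1 bar per library. *St3gal4* fills most of each bar, the *St3gal1* part is 1.01% to 4.62% in WT and 6.75% to 20.8% in DKO, and the *St6galnac2* part is 3.63% to 13.3% in WT and 0.289% to 3.33% in DKO.

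The fucosyltransferases were low throughout. *Fut8*, which adds the core fucose of N-glycans, was the highest at 0.374 ± 0.0935 CPM per kilobase in WT. In CPM it was at 2.497, 3.90, 2.25 and 3.17 in WT and at 3.10, 3.37, 2.01, 3.71 and 3.41 in DKO, with overlap (log2 fold change 0.08, SE 0.22). *Fut10* was at 0.687 ± 0.183 and 0.963 ± 0.341 CPM (log2 fold change 0.44, SE 0.29, adjusted p = 0.550). *Fut2*, the secretor enzyme that fucosylates mucin chains in many epithelia, was at 0.454 ± 0.305 and 0.431 ± 0.230 CPM, with at most 21 counts in a library. No difference was detected (log2 fold change -0.01 by edgeR, and -0.02 with SE 0.56 by DESeq2). The edgeR SE of 1.41 is not reliable, since it was derived from a change near 0.

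The genes of sialic acid supply were among the most abundant members, and all 5 tested ones had log2 fold changes above 0, with a median of 0.28, although *Nans* and *Cmas* turned below 0 without a scaling factor, where the median of all genes was -0.27, and without some single libraries, *Nans* also with the replicate block and *Cmas* also with limma-voom. *Gne*, whose enzyme makes ManNAc from UDP-GlcNAc and phosphorylates it, the rate-limiting entry to sialic acid synthesis, is found at 44034075 to 44084177 on the minus strand of chromosome 4. It was at 245, 377, 217 and 312 CPM in WT and at 441, 542, 540, 423 and 497 CPM in DKO. Every DKO library was above every WT library, by a log2 fold change of 0.76 (SE 0.17, approximate 95% interval 0.43 to 1.09). The adjusted p was 0.0570 by edgeR, 0.000806 by DESeq2 and 0.0477 by limma-voom with quality weights, which called 1.07% of all genes, and the exact permutation test gave p = 0.00794, again unadjusted. DESeq2 called *Gne* without each library in turn, with adjusted p from 1.36e-06 to 0.0174, whereas edgeR called it only without WT replicate 2 (0.0252) or DKO replicate 4 (0.0378).

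*Nans*, the next enzyme, which condenses phosphorylated ManNAc with phosphoenolpyruvate, had the highest level per kilobase of the group in WT, 57.6 ± 2.53 against 45.3 ± 11.3 for *Gne*, while in DKO *Gne* was at 76.8 ± 8.67 and *Nans* at 59.0 ± 4.44. In CPM *Nans* was at 273, 250, 273 and 259 in WT and at 270, 267, 269, 244 and 301 in DKO. Its log2 fold change was 0.03 with an approximate 95% interval from -0.16 to 0.23. *Cmas*, which activates sialic acid with CTP, was at 59.0 ± 9.83 and 61.8 ± 7.01 CPM (log2 fold change 0.07, approximate 95% interval -0.18 to 0.32). The log2 ratio of *Gne* to *Nans* within a library, in CPM, was -0.16, 0.60, -0.33 and 0.27 in WT and 0.70, 1.02, 1.01, 0.79 and 0.73 in DKO, without overlap. *Slc35a1*, the CMP-sialic acid transporter, and *Slc35a2*, the UDP-galactose transporter, had log2 fold changes of 0.28 (SE 0.17) and 0.39 (SE 0.21) and were not called (adjusted p = 0.514 and 0.426). DKO replicate 3 held the highest *Slc35a2* value, 43.4 CPM, where the other DKO libraries lay between 21.5 and 28.6 CPM.

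**Figure D4:**
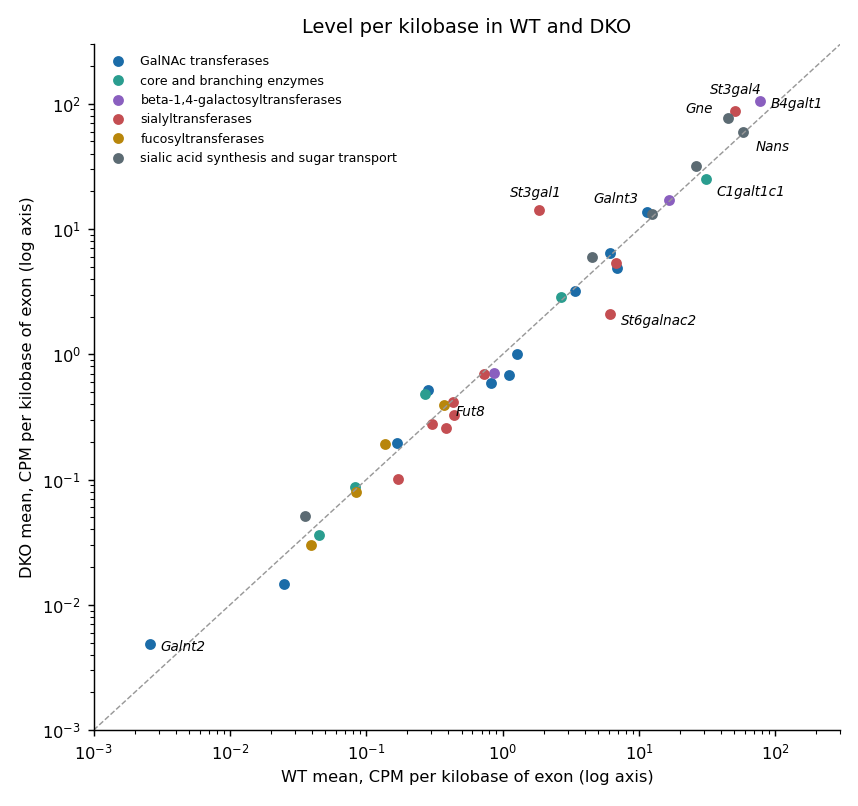
Mean level of each member in DKO against WT, in CPM per kilobase of exon on log axes, with the line of equal levels dashed; *Gcnt3* and *Gcnt4*, at 0 in WT, are left out. Most members lie near the line from 0.00258 to 105 CPM per kilobase, *St3gal1* lies above it (1.84 in WT and 14.2 in DKO) and *St6galnac2* below it (6.11 and 2.10).

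Because DESeq2 called both *Gne* and *St3gal4* higher, the 250 bases before their annotated starts were searched on both strands for 3 short motifs known from targets of stress and secretory transcription factors. The first was TGACGTG. The second was CCACG. The third was ACGTG, which is also the end of the first. RefSeq (GRCm38.p6) holds windows for 25 of the 41 members. *St3gal1*, which both tests called, has no window there and could not be searched. Each sequence runs 5′ to 3′ along the gene, and capitals mark a match to CCACG, here on the opposite strand as CGTGG, with its first base 229 bases before the start. *Gne* has 2 annotated starts and *St3gal4* has 1 in this table.

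Gne, first window, chr4:44072718-44072967, minus strand: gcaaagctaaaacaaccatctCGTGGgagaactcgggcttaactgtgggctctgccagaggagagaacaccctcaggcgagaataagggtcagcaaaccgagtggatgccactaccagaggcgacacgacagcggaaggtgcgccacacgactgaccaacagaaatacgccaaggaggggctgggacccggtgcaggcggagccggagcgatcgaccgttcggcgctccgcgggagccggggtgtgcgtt

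Gne, second window, chr4:44084178-44084427, minus strand: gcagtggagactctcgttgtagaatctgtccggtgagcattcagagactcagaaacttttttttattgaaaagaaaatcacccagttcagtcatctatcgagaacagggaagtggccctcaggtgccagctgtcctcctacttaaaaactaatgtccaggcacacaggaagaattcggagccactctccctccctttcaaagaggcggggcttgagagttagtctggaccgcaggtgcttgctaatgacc

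St3gal4, chr9:35116865-35117114, minus strand: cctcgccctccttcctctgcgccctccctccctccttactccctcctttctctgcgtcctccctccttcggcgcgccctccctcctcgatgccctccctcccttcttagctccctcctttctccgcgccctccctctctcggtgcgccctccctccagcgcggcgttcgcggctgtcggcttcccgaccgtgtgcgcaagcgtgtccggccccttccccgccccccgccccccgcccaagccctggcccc

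GC content was 62.0% in the first *Gne* window, 48.8% in the second and 72.8% in the *St3gal4* window, against a median of 52.4% over all windows. The letters CCACG were in a window of 13 of the 25 members with an entry, and 31.0% of all genes had them. ACGTG was in 6 of the 25 members and 18.5% of all genes, and TGACGTG in 0 of the 25 members and 1.85% of all genes. These counts describe the letters in the windows and say nothing of what binds there.

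Of 77 further genes of these pathways, chosen as lists by function, 48 were tested. By edgeR 0 of them rose and 1 fell, and by DESeq2 2 rose and 2 fell. Over all genes tested, edgeR called 0.166% higher and 0.462% lower, and DESeq2 1.77% higher and 2.68% lower. The gene that fell in both was *St3gal5*, the GM3 synthase that sialylates a glycolipid. It was at 12.5, 10.96, 18.0 and 15.2 CPM in WT and at 7.38, 5.30, 5.45, 9.91 and 6.74 CPM in DKO, without overlap (log2 fold change -1.02, SE 0.20, adjusted p = 0.0487 by edgeR and 0.000511 by DESeq2). As for *St3gal1*, edgeR kept this call only without WT replicate 2 (0.0279) or DKO replicate 4 (0.0167) among the fits that left out a library, and DESeq2 kept it in all 9 such fits.

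The other 3 calls were made by DESeq2 alone. *Galnt5*, a GalNAc transferase outside the list of 41, was at 0, 0.420, 0.331 and 0.6003 CPM in WT and at 1.2, 1.15, 2.43, 1.5 and 0.652 CPM in DKO (log2 fold change 1.83, SE 0.52, DESeq2 adjusted p = 0.00669), and it lost the call without WT replicate 3 (0.0586). *Tsta3* (also *Gfus*), which makes GDP-fucose, was at 125 ± 6.18 and 176 ± 36.7 CPM (log2 fold change 0.50, DESeq2 adjusted p = 0.0380), a call that was lost in 6 of the 9 fits without a library, with DKO replicates 2 and 4 and WT replicate 2 the exceptions. *B3gnt5*, which starts lacto-series glycolipids, was at 5.39 ± 1.74 and 2.66 ± 0.966 CPM (log2 fold change -1.002, DESeq2 adjusted p = 0.0372). Its call was lost without DKO replicate 1 or 5 or WT replicate 1, 2 or 3. *Gfpt1*, the first enzyme of the hexosamine pathway, which feeds UDP-GlcNAc to *Gne*, did not overlap between the groups, at 106 to 121 CPM in WT and 125 to 191 CPM in DKO, but was not called (log2 fold change 0.34, SE 0.13, adjusted p = 0.262).

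Summed over each list, the other sialyltransferases were at 12.0 to 18.6 CPM in WT and 6.18 to 11.4 CPM in DKO, with *St3gal5* holding most of it. The 17 genes of nucleotide sugar synthesis and transport were at 654 to 716 CPM in WT and 706 to 1086 CPM in DKO, with overlap. The sulfotransferase and sialidase lists also overlapped, at 188 to 202 and 175 to 208 CPM and at 54.8 to 61.4 and 55.4 to 65.9 CPM. Of the tested genes in these lists with the highest fitted change, *Galntl6* ranged from 0.0429 to 2.86 CPM in WT and from 0.0585 to 16.8 CPM in DKO, and was not called (log2 fold change 2.22, SE 0.96, adjusted p = 0.311).

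The proteins that receive these chains were read in the same libraries. Of the gel-forming mucins, *Muc5ac* had 0 counts in all libraries, *Muc2* had at most 1 count in a library, and *Muc5b* was at 0.0662 CPM in WT. *Muc6* had at most 12 counts in a library. *Muc19*, also on the sublingual list, was uneven and was not tested. It was at 3.80 CPM in WT replicate 3 and 6.12 CPM in DKO replicate 4, and at 0 to 0.740 CPM in the remaining libraries. The mucin-like genes *Mucl2* and *Prol1*, whose products are abundant acinar proteins, were at 145620 ± 28868 and 45874 ± 11046 CPM in WT and at 227320 ± 44073 and 79349 ± 15805 CPM in DKO, and DESeq2 called both higher (log2 fold changes 0.64 and 0.79 by edgeR, DESeq2 adjusted p = 0.0117 and 0.00273, edgeR adjusted p = 0.356 and 0.213). *Muc13*, a transmembrane mucin of epithelial surfaces, was at 103, 63.8, 113 and 70.9 CPM in WT and at 44.4, 33.6, 21.5, 50.6 and 51.6 CPM in DKO, without overlap (log2 fold change -1.12, SE 0.25, adjusted p = 0.0574 by edgeR and 0.00134 by DESeq2). The paper used Muc13 protein as a marker of granular ducts and reported less of its staining in male DKO glands. It also lists *Muc13* among the genes that differed by qPCR in males. *Mucl1* differed most between single libraries, with 37141 CPM in WT replicate 1 and 99830 CPM in DKO replicate 1. It was at 0.986 to 1.22 CPM in WT replicates 2 to 4 and 1.66 to 4.85 CPM in DKO replicates 2 to 5, without overlap. With all libraries, edgeR did not call it (adjusted p = 0.920). The paper lists *Mucl1* among the genes that differed by qPCR in male DKO glands.

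Several marker lists also differed between WT and DKO, and their part in the results above was not tested. All 7 acinar markers had log2 fold changes above 0 (median 0.64, 3 called higher by DESeq2, 0 by edgeR). The 3 were *Pip* and the mucin-like genes *Mucl2* and *Prol1* given above. *Aqp5*, *Bhlha15*, *Lpo* and *Slc12a2* had DESeq2 adjusted p from 0.0724 to 0.787. All 7 granular duct markers were below 0 (median -1.93) without overlap in any of them, and DESeq2 called 7 and edgeR 0. All 6 myoepithelial markers were below 0 (median -1.20), from 616 to 996 CPM summed in WT and from 237 to 556 CPM in DKO, with 3 called lower by edgeR and 6 by DESeq2. Fibroblast markers summed to 219 to 352 CPM in WT and 108 to 258 CPM in DKO, endothelial markers to 15.7 to 21.6 and 20.9 to 27.7, and lymphocyte and plasma cell markers to 64.7 to 157 and 13.0 to 195. Sublingual markers summed to 1.03 to 57.9 CPM in WT and 0.549 to 135 CPM in DKO, with *Nkx2-3* at or under 3 counts in every library, adipocyte markers to 1.74 to 3.17 and 2.54 to 4.72, and skeletal muscle markers to 2.52 to 6.64 and 2.40 to 3.99, with *Myh4* at 0. Within the muscle list, *Acta1*, the skeletal muscle actin, fell from 3.47 ± 1.79 CPM in WT (SD, n = 4) to 0.286 ± 0.178 CPM in DKO (SD, n = 5) without overlap (log2 fold change -3.34, SE 0.47, adjusted p = 0.0385 by edgeR and 8.5e-09 by DESeq2), while *Ckm* had a log2 fold change of 0.59 and was not called.

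Set beside the duct markers, the highest and lowest *St3gal1* values of each genotype fell in the libraries with the lowest and highest duct sums. WT replicate 2 had the lowest duct sum of the WT libraries (42490 CPM) and the highest *St3gal1* (26.9 CPM), and WT replicate 1 had the highest duct sum (104800 CPM) and the lowest *St3gal1* (3.84 CPM). In DKO, replicate 3 had the lowest duct sum (5595 CPM) and the highest *St3gal1* (183 CPM), and replicate 4 had the highest duct sum (33590 CPM) and the lowest *St3gal1* (41.9 CPM). The order did not hold throughout, since DKO replicate 5 had more *St3gal1* (117 CPM) than DKO replicate 2 (92.9 CPM) and also a higher duct sum (21240 against 17010 CPM). *St6galnac2* was lowest in the libraries with the lowest duct sums, WT replicate 2 (17.9 CPM) and DKO replicate 3 (2.15 CPM), but DKO replicate 2, with the second lowest duct sum of its group, held the highest DKO value (22.7 CPM), and WT replicate 1, with the highest duct sum, had the third highest WT value (33.3 CPM). Since the duct and acinar markers take up a large part of each library, these values share a depth and a scaling factor, and no coefficient is given.

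**Figure D5:**
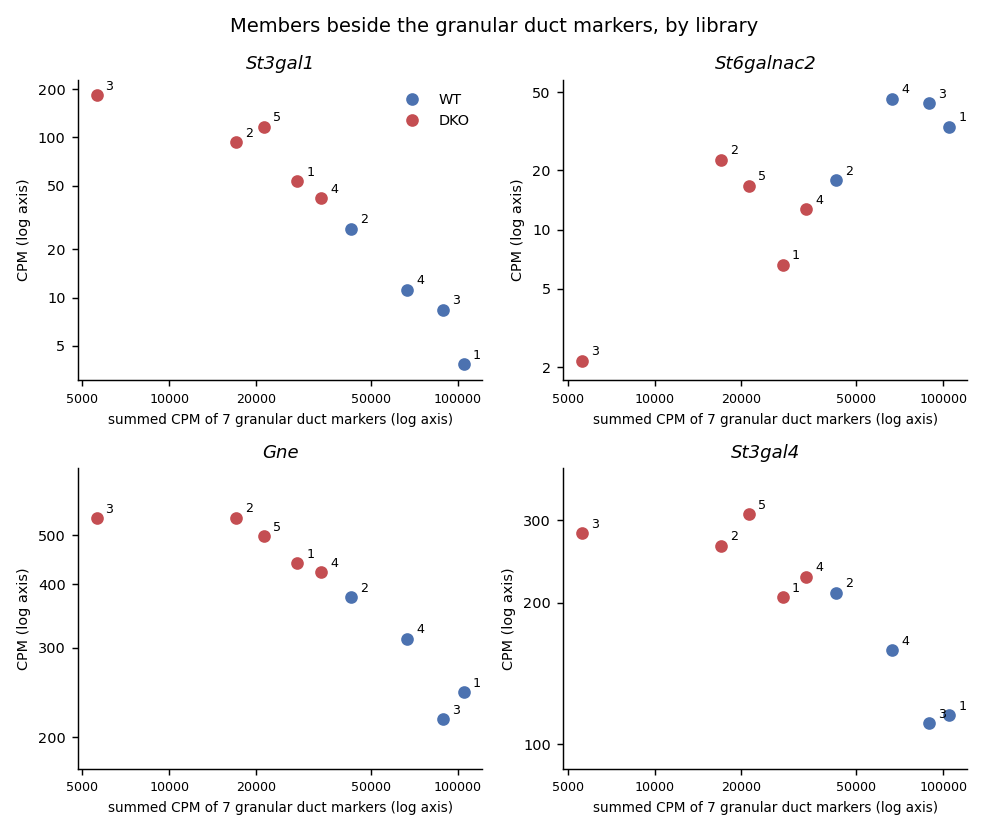
CPM of *St3gal1*, *St6galnac2*, *Gne* and *St3gal4* against the summed CPM of 7 granular duct markers, both on log axes, 1 point per library (WT blue, DKO red, numbered by replicate). Within both genotypes *St3gal1* is highest in the library with the lowest duct sum, 26.9 CPM in WT replicate 2 and 183 CPM in DKO replicate 3.

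Set against the acinar markers within a library, the members differed. The log2 ratio of *St3gal1* to the 7 acinar markers, taken as the mean of their logs, was -8.94 to -6.73 in WT and -6.19 to -4.43 in DKO, without overlap and with a mean difference of 2.498. The same ratio for *Gne* averaged -3.09 (SD 0.206, n = 4) in WT libraries and -2.90 (SD 0.1502, n = 5) in DKO libraries, a difference of 0.19, and for *St3gal4* it was -4.06 ± 0.233 and -3.83 ± 0.0573, a difference of 0.23. For *B4galt1* it was -2.90 ± 0.0570 and -3.05 ± 0.220, a difference of -0.15. Thus the *Gne*, *St3gal4* and *B4galt1* ratios overlapped between WT and DKO, and the *St3gal1* ratio did not. The overlap differed in extent. The *Gne* ratio was above every WT ratio in 4 of 5 DKO libraries, and the *St3gal4* ratio in 1. The *B4galt1* ratio was below every WT ratio in 3 DKO libraries and above every WT ratio in 1.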

How the data were processed

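The authors deposited raw read counts per gene, the same counts after a filter (17562 rows), and normalized signal values, each a filtered count over 1 TMM-scaled factor of its library; all 158058 of these values gave back whole counts within 1.16e-08. Libraries were unstranded (Nextera XT). Per the labels, the submitters' processing notes name STAR 2.5.2a, edgeR, limma, DESeq2, mm10, GRCm38 and GRCh38; the counting tool and annotation are not given in the sources used here. Members were taken by symbol from the normalized table, and those outside that table (6) from the raw counts by GENCODE M21 symbol.

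Tests ran on the unfiltered counts in edgeR 4.0.16 under R 4.3.3 (filterByExpr with minimum count 10 and total 15, TMM, legacy quasi-likelihood fit, genotype as the single term, 13842 genes) and Benjamini-Hochberg adjustment. DESeq2 1.42.0, limma 3.58.1 and 16 other settings fixed with the design were alternatives, and 9 DESeq2 fits that each left out a library were added after seeing the data. A group's SD is over libraries, and intervals and floors of 3 counts cover counting or library error only. Permutation tests used log2(CPM + 1) and all 126 splits, two-sided. Levels per kilobase used the union of GENCODE M21 exons. Tests were tried on simulated counts. Nothing in the labels tells how the glands were spread over days. Genes given library by library were those called by edgeR or DESeq2, those without overlap and the highest per kilobase of each subgroup; *C1galt1c1*, *B4galt1* and *St6galnac2* values were otherwise added after seeing them. The members and lists were chosen with earlier results of these data known. Protein sequences were not used here. Summaries used pandas 2.3.3 and numpy 2.4.6, and figures matplotlib 3.10.9, under Python 3.11.15.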

Additional observations from a re-analysis of the deposited data

Results flagged for a closer look

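In 1 of the 66 groups of member values checked, a library stood apart from the rest of its group, where chance gives about 1 in 20 groups. *St6galnac4* was at 2.14 CPM in WT replicate 2, below the other 3 WT libraries at 2.58 to 2.66 CPM, a gap of 0.854 of the group's range. The value still lay above all DKO values.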

How the results depend on the processing

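edgeR called 1 member, *St3gal1*, and 87 genes in all. The members called higher were 3 with DESeq2 (616 genes in all), 2 with limma-voom (148), 3 with no filter on low counts (345), 0 without the 20 most abundant genes in the totals (2 genes in all) and 0 with the replicate block (0 genes, with 2024 at an unadjusted p under 0.05); total counts with no scaling factor gave 358 genes. *St3gal1* had an adjusted p of 0.0766 and a log2 fold change of 2.94 with the block and 0.0630 and 2.93 without the most abundant genes. *Gne* passed with DESeq2 (0.77), limma-voom (0.74) and no filter (0.76), and *St3gal4* with DESeq2 (0.80) and no filter (0.79). Without 1 library, by either tool, 0 to 4 members were called higher and 0 to 1 lower, of 0 to 887 genes; the extra calls by DESeq2 were *B3gnt3* (higher) and *C1galt1c1* (lower) without WT replicate 2 and *Galnt1* (lower) without DKO replicate 1. Other pathway genes called higher were 2 and lower 2 with DESeq2, lower 0 with the block and 0 without the most abundant genes, and 0 to 2 and 0 to 3 without 1 library.

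Without a scaling factor the median of all genes moved from 0.01 to -0.27, and the medians moved with it: members -0.26, GalNAc transferases -0.36, core enzymes -0.18, the *B4galt* family -0.26, sialyltransferases -0.50, fucosyltransferases -0.18 and sialic acid genes 0.0051. With at least 1 CPM in 4 libraries the GalNAc transferases were at -0.33 and the sialyltransferases at -0.0869. Without 1 library the medians were -0.034 to 0.060 (members), -0.31 to -0.11 (sialyltransferases) and -0.034 to 0.53 (fucosyltransferases). Members without overlap were 1 higher and 4 lower without a scaling factor and 1 lower without the most abundant genes, and 2 to 4 higher and 2 to 4 lower without 1 library; *St3gal4* and *B4galt1* joined without DKO replicate 1.

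Of 878 comparisons of member fold changes over 27 settings, 790 kept direction and side, and 51 in 12 members turned sign, from values between -0.09 and 0.25. Without a scaling factor these were *Galnt3* (-0.094), *Galnt6* (-0.066), *Galnt7* (-0.22), *C1galt1* (-0.18), *B4galt3* (-0.26), *Fut8* (-0.18), *Nans* (-0.27) and *Cmas* (-0.24); with the replicate block *Galnt7* (-0.0441), *St3gal2* (0.067), *St3gal6* (0.0029), *Fut2* (0.073) and *Nans* (-0.007252); with limma-voom *St3gal2* (0.053), *St3gal6* (0.056), *St6gal1* (0.0040) and *Cmas* (-0.023); without the most abundant genes *St3gal6* (0.0078) and *Fut2* (0.028). Without 1 library the ranges were *Galnt7* -0.031 to 0.20, *B4galt3* -0.027 to 0.17, *St3gal2* -0.13 to 0.16, *St3gal6* -0.17 to 0.11, *St6gal1* -0.17 to 0.0172, *Fut2* -0.24 to 0.53, *Fut8* -0.034 to 0.25, *Nans* -0.0060 to 0.073 and *Cmas* -0.0067 to 0.18. The cause was not tested. Deviations from the group mean correlated at 0.245, 0.369, 0.113 and 0.00634 between same-numbered libraries, and 2 of 4 correlated best with their own number, so the numbers were not taken as pairs. Pseudocounts of 0.1 and 5 left the permutation results of 5 members on the same side of 0.05. Low counts limit *Fut2* and the 8 untested members.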
